A study of Mus musculus with 3 samples.

Results

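The 32 genes described here encode ATRX, the histone variant H3.3 and the heterochromatin machinery around them, and they were chosen by name, as 32 of 21887 protein-coding genes on the mouse chromosomes. An ATRX peak was counted for a gene when it overlapped the gene span or the 5 kb on either side of it by at least 1 bp. Primary neurons were cultured from embryos (E15.5 to E17.5) of the C57BL6/J strain in medium with 2% serum. Lentivirus was added on day 5 of culture, and ATRX was profiled by ChIP-seq on day 14. The virus carried mCherry in the control culture and MICAL1-FL in the other, MICAL1 being a monooxygenase known to oxidise actin. Each condition had 1 ChIP library and 1 peak list, and input DNA of control neurons is labelled as a further sample. Which promoter drives each transgene is not stated in the labels. A peak list holds no expression values, so the neuronal label was not checked against markers. Peak names in the list labelled MICAL1-FL carry another code, TBC_M2, so every MICAL1-FL value rests on the sample label.

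ATRX is a SWI/SNF-type remodeller that works with the H3.3 chaperone DAXX to place H3.3 in silent repeats and at telomeres. A separate complex around HIRA places H3.3 in active chromatin. Heterochromatin is built by enzymes that methylate lysine 9 of histone H3, by HP1 proteins that read this mark, and by DNA methyltransferases with their cofactors. The comparison asks where ATRX itself lies on the genes of this machinery, and whether its peaks there differ between control and MICAL1-FL neurons.

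The ATRX peaks that reached furthest into the promoters of these genes lay at Atrx itself, Suv39h2, Ehmt2, Dnmt1 and Uhrf1. Their promoter windows are printed because they are the members' start sites where at least 30 bases were inside a peak. Sequences are from RefSeq on GRCm38.p6, 31 of the 32 genes had an entry, and each runs 5′ to 3′ along the gene from 250 bases before to 50 bases after an annotated start. Capitals mark the bases inside the peak. The Atrx window is chrX:105929323-105929622 on the minus strand with a MICAL1-FL peak, and that of Suv39h2 is chr2:3474937-3475236 on the minus strand with a control peak. The Ehmt2 window is chr17:34898720-34899019 on the plus strand with a MICAL1-FL peak. For Dnmt1 it is chr9:20959839-20960138 on the minus strand with a control peak, and for Uhrf1 it is chr17:56304063-56304362 on the plus strand with a MICAL1-FL peak.
Atrx: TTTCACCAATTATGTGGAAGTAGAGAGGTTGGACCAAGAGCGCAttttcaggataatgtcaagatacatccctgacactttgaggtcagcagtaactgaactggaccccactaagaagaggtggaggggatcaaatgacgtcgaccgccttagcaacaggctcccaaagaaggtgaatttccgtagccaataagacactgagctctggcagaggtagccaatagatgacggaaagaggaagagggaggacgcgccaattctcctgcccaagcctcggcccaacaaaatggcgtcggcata
Suv39h2: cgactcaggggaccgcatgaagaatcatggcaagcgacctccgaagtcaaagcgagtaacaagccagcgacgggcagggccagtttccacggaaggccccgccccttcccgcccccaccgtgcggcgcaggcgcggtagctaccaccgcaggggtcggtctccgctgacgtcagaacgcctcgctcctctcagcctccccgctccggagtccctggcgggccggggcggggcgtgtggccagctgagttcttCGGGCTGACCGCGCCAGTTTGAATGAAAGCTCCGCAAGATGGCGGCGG
Ehmt2: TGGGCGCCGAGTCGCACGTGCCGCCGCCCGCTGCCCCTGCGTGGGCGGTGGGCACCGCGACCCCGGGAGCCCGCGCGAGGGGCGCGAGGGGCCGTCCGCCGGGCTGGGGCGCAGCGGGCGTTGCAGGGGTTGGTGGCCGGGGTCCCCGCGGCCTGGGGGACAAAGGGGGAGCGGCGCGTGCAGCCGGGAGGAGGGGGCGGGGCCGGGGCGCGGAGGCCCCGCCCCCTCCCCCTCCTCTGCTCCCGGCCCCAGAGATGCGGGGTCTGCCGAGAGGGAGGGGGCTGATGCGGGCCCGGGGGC
Dnmt1: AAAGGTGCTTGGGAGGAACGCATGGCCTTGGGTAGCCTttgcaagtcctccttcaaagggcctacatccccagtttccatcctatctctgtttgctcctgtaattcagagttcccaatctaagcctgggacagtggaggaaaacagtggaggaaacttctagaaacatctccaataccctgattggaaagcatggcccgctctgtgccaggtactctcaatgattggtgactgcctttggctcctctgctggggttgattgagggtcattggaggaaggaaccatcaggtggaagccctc
Uhrf1: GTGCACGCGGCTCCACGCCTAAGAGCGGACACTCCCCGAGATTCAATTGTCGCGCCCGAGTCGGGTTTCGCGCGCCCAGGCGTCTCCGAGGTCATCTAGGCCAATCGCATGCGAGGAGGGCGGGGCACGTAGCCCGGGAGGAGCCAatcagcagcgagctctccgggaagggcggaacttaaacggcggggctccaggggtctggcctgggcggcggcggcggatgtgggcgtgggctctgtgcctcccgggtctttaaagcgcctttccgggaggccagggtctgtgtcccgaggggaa

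The peak covered all 300 bases of the Ehmt2 window, 146 bases of that of Uhrf1, 48 of Suv39h2, 44 of Atrx and 38 of Dnmt1. A sixth window, at an internal start of Dnmt3a, had 7 bases in a control peak. These windows differed in CG dinucleotides, the sites of DNA methylation, with 40 in Ehmt2, 33 in Suv39h2 and in Uhrf1, 11 in Atrx and 2 in this Dnmt1 window. Dnmt1 has 3 annotated starts, whose windows held from 2 to 33. The printed window is that of the outermost start, and no other Dnmt1 window had bases in a peak. The median was 31 over the 43 windows of the members and 7 over all 32851 windows in the table, which also holds other kinds of genes. A G-quadruplex motif, searched on both strands as 4 runs of GGG with 1 to 7 bases between them, was present in the Suv39h2 and Ehmt2 windows and not in the other 3 printed. The Suv39h2 match lay in bases outside the peak, and CG counts are likewise of whole windows. Such a match was found in 10 of the 43 member windows (23.3%) and in 18.6% of all windows.

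ATRX peaks on these genes were few and shallow in both libraries. The members together had 48 control peaks and 54 MICAL1-FL peaks, and no peak was counted under more than 1 member. The number of fragments at the summit, worked back from the deposited fold and p-value, ran from 4 to 9 in the control list and from 4 to 8 in the MICAL1-FL list, with a median of 5 in each. At most 6 fragments lay under 42 of 48 control peaks (87.5%) and 46 of 54 MICAL1-FL peaks (85.2%), where peaks of all protein-coding genes gave 82.0% and 84.6%. No member peak had a q-value below 0.05, against 0.411% and 0.316% of peaks over all protein-coding genes. The deepest were a control peak in Cabin1 (9 fragments, fold 3.81, p 8e-06, q 0.182) and MICAL1-FL peaks in Hira (8 fragments, fold 3.44, p 4.9e-05, q 0.626) and Pphln1 (8 fragments, fold 3.23, p 0.0001, q 0.797). For the other member peaks q was 1. Folds, p- and q-values are the authors' own and describe single peaks within a list, and folds are not compared between lists because the relation of input to ChIP depth may differ between them. Intervals below are exact 95% intervals that cover counting error only.

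**Figure D1:**
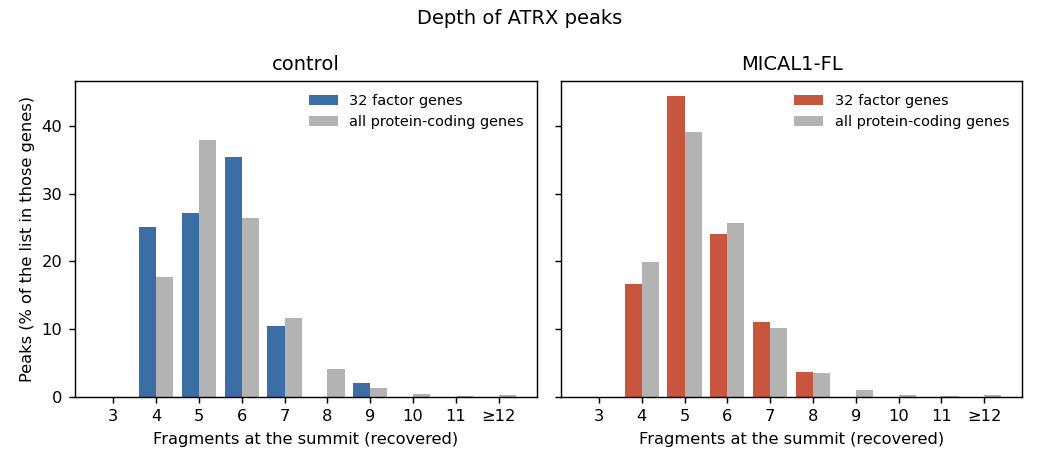
Share of ATRX peaks (%) at each depth in fragments at the summit, for peaks on the 32 factor genes (coloured bars) and on all protein-coding genes (grey bars), in the control and MICAL1-FL lists. Peaks on the factor genes held 4 to 9 control and 4 to 8 MICAL1-FL fragments, within the depths where most peaks of all genes lay.

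A control peak was present at 18 of the 32 genes (56.2%, Clopper-Pearson 37.7 to 73.6), where 64.0% of all protein-coding genes had one. A MICAL1-FL peak was present at 23 (71.9%, 53.3 to 86.3), where the background was 61.2%. Both lists had a peak at 14 genes (43.8%, 26.4 to 62.3) against 48.2% of all genes, and neither had one at 5 (15.6%, 5.28 to 32.8) against 22.9%. These 4 intervals include the background, which is not matched for length. Member windows are longer (median 41.4 beside 27.2 kb), and longer windows more often hold a peak. Under 25 kb, 2 (control) and 5 (MICAL1-FL) of 8 members had one, beside 45.3% and 41.6% of all genes. At 25 to 50 kb these were 8 and 8 of 13, beside 68.5% and 65.1%. At 50 to 100 kb they were 2 and 4 of 5, beside 85.8% and 84.9%. From 100 kb all 6 had a peak in each list, beside 97.8% and 97.2%. Peaks of the control list alone were seen at 4 members (12.5%, 3.51 to 29) beside 15.8% of all genes, and of the MICAL1-FL list alone at 9 (28.1%, 13.7 to 46.7) beside 13.0%. The latter interval lies above its background with 5 kb flanks and includes it on the gene spans alone (7 members, 21.9%, 9.28 to 40, beside 12.5%), with 1 kb flanks (8 members, 11.5 to 43.4, beside 13%) and with 10 kb flanks (6 members, 7.21 to 36.4, beside 11.7%). None of these 13 genes was tested for a difference, and peaks of as few as 4 fragments were listed. With 5 kb flanks but only summits inside the window counted, 8 members had MICAL1-FL peaks alone. The interval for 8 members, given above, reaches down to 11.5%, and the background was not recounted in this way.

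**Figure D2:**
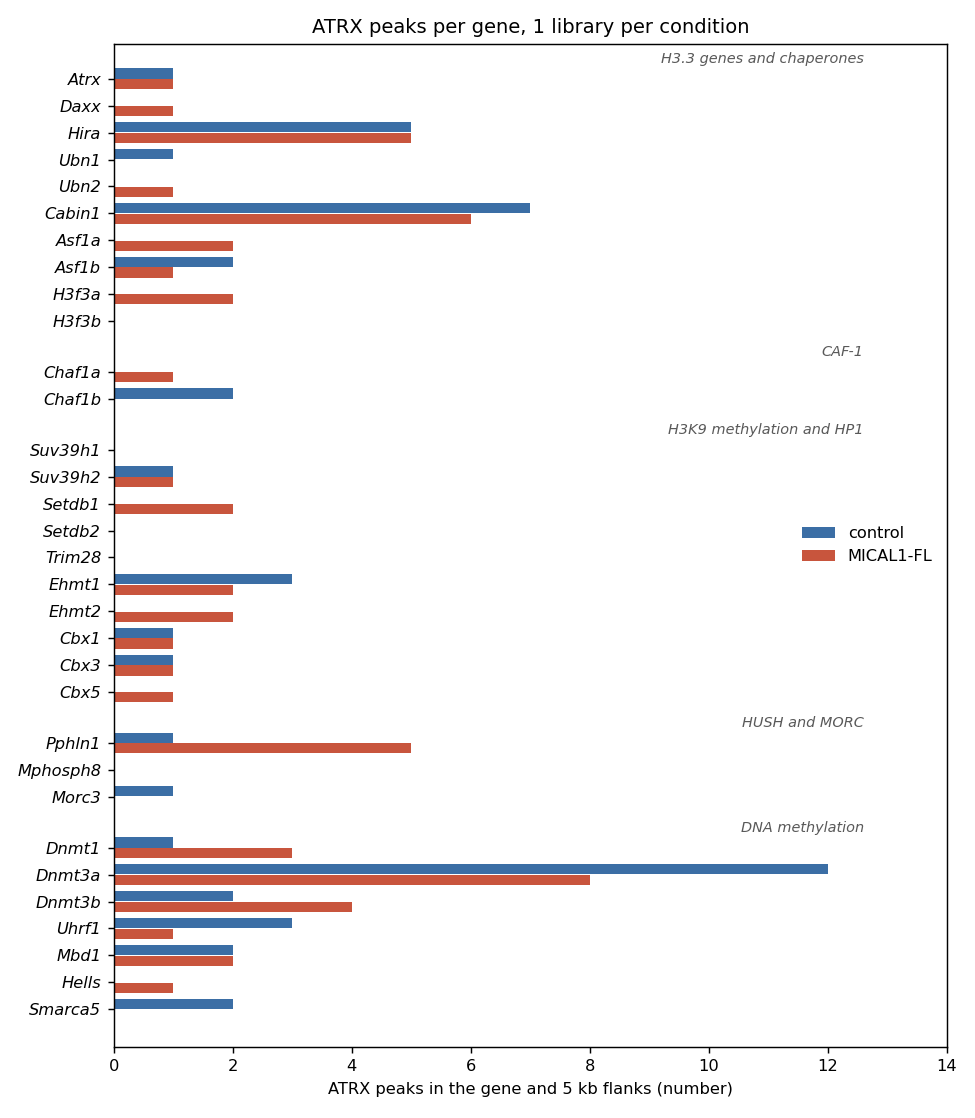
Number of ATRX peaks in each gene and its 5 kb flanks, by role, in the control (blue) and MICAL1-FL (red) lists, with 1 library per condition and so no error bars. Dnmt3a has the longest bars, 12 and 8, and H3f3b, Suv39h1, Setdb2, Trim28 and Mphosph8 have none.

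Set against length, the genes carried fewer peaks of both lists than protein-coding genes as a whole. Their windows, 1.70 Mb in all, held 28.3 control peaks per Mb (Poisson interval 20.8 to 37.5) where all protein-coding windows held 45.9, and 31.8 MICAL1-FL peaks per Mb (23.9 to 41.5) where the background was 42.5. Both pooled intervals lie below their backgrounds. The median gene had 1 peak in each list, as over all genes, and the median of density per gene was 12.8 control and 33.1 MICAL1-FL peaks per Mb beside 32.8 and 29.4 over all genes. The MICAL1-FL median is thus above its background while the pooled density is below it. The pooled value gives long genes more weight than the median does, and whether this accounts for the difference was not tested. In windows of 50 to 100 kb, which hold Cbx5, Dnmt1, Hells, Morc3 and Ubn2, there were 2 control peaks, or 6.37 per Mb (0.771 to 23.0), beside 41.2 for all genes of that length, and 6 MICAL1-FL peaks, or 19.1 per Mb (7.01 to 41.6), beside 37.6. The 8 shortest windows, under 25 kb, held 3 control and 7 MICAL1-FL peaks, or 18.5 (3.82 to 54.1) and 43.2 (17.4 to 89.0) per Mb beside 45.3 and 39.9. The 13 genes with windows of 25 to 50 kb had 14 peaks in each list, or 28.8 per Mb (15.7 to 48.3) beside 40.1 control and 36.4 MICAL1-FL peaks per Mb. Windows of 100 kb or more, those of Atrx, Cabin1, Dnmt3a, Ehmt1, Hira and Pphln1, held 29 control and 27 MICAL1-FL peaks, or 39.2 (26.3 to 56.4) and 36.5 (24.1 to 53.2) per Mb beside 51 and 48.2. Of these 8 intervals, the control interval of the 50 to 100 kb windows alone leaves out its background. Atrx and Suv39h1 lie on the X chromosome, where protein-coding windows had 9.55 and 6.92 peaks per Mb. The 30 autosomal members had 30.6 (22.5 to 40.8) and 34.6 (25.9 to 45.2) peaks per Mb beside 47.8 and 44.4 for autosomal genes. Here the control interval lies below its background and the MICAL1-FL interval includes its own. How well reads map in these windows was not tested.

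The ratio of MICAL1-FL to control peaks over the members was 1.12 (conditional binomial interval 0.748 to 1.70), beside 0.927 for all protein-coding genes. The interval includes both 1 and the background. The direction turned with the flank, to 0.875 for the gene spans alone and 0.938 with 10 kb flanks. The gene itself was touched by 40 of 48 control peaks (83.3%, 69.8 to 92.5). In the MICAL1-FL list it was touched by 35 of 54 (64.8%, 50.6 to 77.3), and the other peaks lay in the flanks. Counted gene by gene in the same way, the shares over all protein-coding genes were 85.1% and 85.3%. The control interval includes its background, the MICAL1-FL interval lies below its own, and the lists were not tested against each other. Of the 19 MICAL1-FL peaks in flanks, 7 were inside a neighbouring protein-coding gene, and so were 2 of the 8 control peaks in flanks. Among all 3612 genes with at least 5 peaks in a list, 12.4% had at least 2 times as many MICAL1-FL as control peaks and 20.4% the reverse. Of the members with at least 5 peaks, Pphln1 alone passed this mark, upwards, and none passed it downwards.

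**Figure D3:**
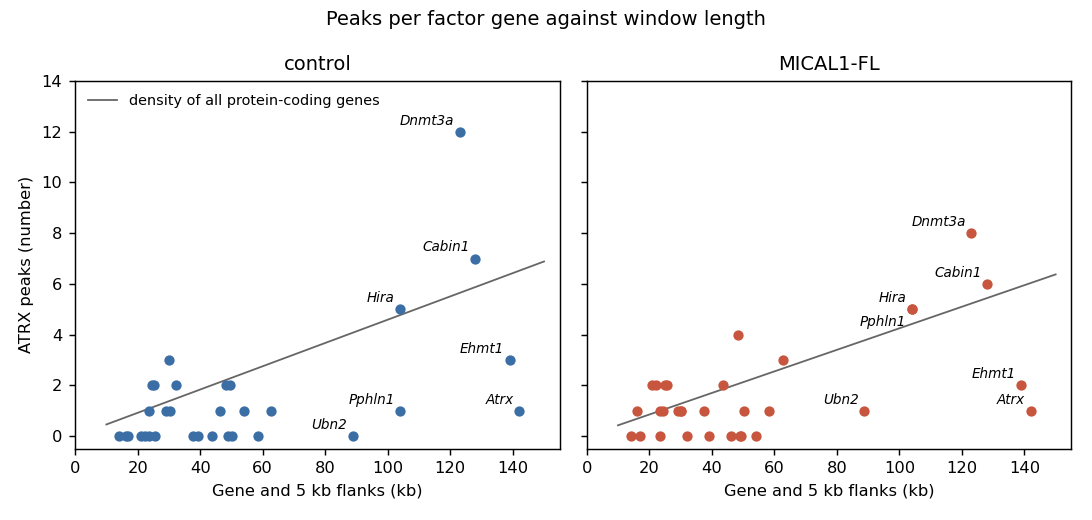
ATRX peaks per factor gene (vertical axis, number) against the length of the gene with its 5 kb flanks (horizontal axis, kb), each point 1 gene, in the control and MICAL1-FL lists. The line is the peak density of all protein-coding genes, 45.9 and 42.5 peaks per Mb, with Dnmt3a above it in both panels and Atrx and Ehmt1 below it.

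Among the H3.3 genes and their chaperones, Cabin1 and Hira held most of the peaks. These 10 genes had 16 control and 19 MICAL1-FL peaks, or 26.4 (15.1 to 42.8) and 31.3 (18.9 to 48.9) per Mb, and a ratio of 1.19 (0.578 to 2.47). On the gene spans alone the ratio was 0.733 and with 1 kb flanks 0.875, so its direction depends on the flank. A control peak was present at 5 of the 10 genes and a MICAL1-FL peak at 8, beside 64.0% and 61.2% of all protein-coding genes. Those shares are not matched for length, and counts over 10 genes were not tested.

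Atrx, the gene of the profiled protein, had 1 peak in each list, at opposite ends of the gene. The control peak covered chromosome X 105800283 to 105800532, inside the gene and 129 kb from its start. The MICAL1-FL peak, at 105929579 to 105929846, had its summit upstream of the start (-328 bp) and reached into the promoter printed above. Each was 5 fragments deep with a fold of 2.29, and p was 0.0064 and 0.0063. The window of 142 kb would hold 6.50 control and 6.03 MICAL1-FL peaks at the density of all protein-coding genes, so the count was 0.154 (0.00389 to 0.857) and 0.166 (0.0042 to 0.924) of that. At the density of X-linked genes it would hold 1.35 and 0.981, close to what was found.

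Daxx, which hands H3.3 to ATRX-bound sites, had 0 control peaks and 1 MICAL1-FL peak. That peak, chromosome 17 33920228 to 33920891, was 5 fragments deep (fold 2.29, p 0.0063), lay beyond the end of the gene and was inside the neighbouring gene Tapbp. It reached into the 5 kb flank by its edge alone, with its summit outside. None of the 3 annotated Daxx starts had a peak of either list within 1 kb.

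Hira, the core chaperone of the second H3.3 pathway, had 5 peaks in each list, close to the 4.75 and 4.40 that its length gives at the density of all genes. One pair overlapped, the control peak at chromosome 16 18877209 to 18877514 (7 fragments, fold 2.62, p 0.0013) and the MICAL1-FL peak at 18877074 to 18877967 (5 fragments, fold 2.29, p 0.0063). Their summits lay 616 and 875 bp after the start. Away from the start the peaks did not coincide, with control summits at 49.2, 51.2, 73.9 and 92.2 kb and MICAL1-FL summits at 8.12, 32.3, 81.7 and 94.5 kb. The strongest of the chaperone group in the MICAL1-FL list was the peak at 81.7 kb, chromosome 16 18958385 to 18958652.

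Cabin1, a subunit of the HIRA complex, had 7 control and 6 MICAL1-FL peaks beside 5.88 and 5.45 by length. Its control peak at chromosome 10 75667257 to 75667592, 96.9 kb from the start, had the lowest p-value of all member peaks in that list. A pair overlapped at 57 kb from the start, with the control peak at 75707016 to 75707284 (5 fragments, fold 2.23, p 0.0079) and the MICAL1-FL peak at 75707105 to 75707521 (6 fragments, fold 2.51, p 0.0025). Ubinuclein genes, whose products also belong to the HIRA complex, had at most 1 peak per list. Ubn1 had 1 control peak, upstream of its start (-411 bp) and inside the neighbouring Glyr1, and no MICAL1-FL peak, beside 2.12 and 1.97 by length. Ubn2 had 0 control peaks in a window of 88.8 kb that would hold 4.08 at the density of all genes, an upper limit of 0.905 of that density. It had 1 MICAL1-FL peak of 4 fragments at 77.3 kb from the start, beside 3.78 by length. Among the ubinuclein counts, the control count of Ubn2 alone had an interval that left out that density.

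The ASF1 genes, which encode chaperones that pass new histones to HIRA and CAF-1, differed in where their peaks lay. Asf1a had 0 control and 2 MICAL1-FL peaks, both before its start and inside the neighbouring Mcm9. Asf1b had control peaks at 618 bp and 13.8 kb after the start and a MICAL1-FL peak of 7 fragments upstream of it (-4.88 kb). Of the genes that encode H3.3 itself, H3f3a had 0 control peaks and 2 MICAL1-FL peaks of 5 fragments, with summits 165 and 1051 bp after the start. H3f3b had none in either list, in a window of 14.1 kb that would hold 0.646 control and 0.599 MICAL1-FL peaks by length.

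CAF-1 places histones H3.1 and H4 behind the replication fork, and the genes of its subunits Chaf1a and Chaf1b had 2 control peaks and 1 MICAL1-FL peak. The control peaks lay at the far end of Chaf1b, the stronger at chromosome 16 93905936 to 93906400 with 6 fragments and a p of 0.0014. The MICAL1-FL peak was in Chaf1a, chromosome 17 56054375 to 56054937, also with 6 fragments. Counts this small give a ratio of 0.50 with an interval from 0.00847 to 9.60.

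Genes of H3K9 methylation and of HP1 were the sparsest large group. The 10 genes had 6 control peaks, or 13.7 per Mb (5.02 to 29.8), and 10 MICAL1-FL peaks, or 22.8 per Mb (10.9 to 41.9). Both intervals lie below the densities of all protein-coding genes, 45.9 and 42.5, and Suv39h1 adds an X-linked window to this group. The ratio was 1.67 (0.549 to 5.58). No control peak of the group overlapped a MICAL1-FL peak, beside 8.06% of control peaks over all protein-coding genes. With 6 control peaks, 0 cannot be told apart from that share.

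Of the methyltransferases, Suv39h1 and Setdb2 had no peak in either list, and neither had Trim28, the corepressor that brings SETDB1 to KRAB zinc finger proteins. Suv39h2, the paralog of Suv39h1, had a control peak of 5 fragments with its summit 300 bp after the start, at the promoter printed above, and a MICAL1-FL peak at 13.2 kb, where Dclre1c also lies. Setdb1 had 0 control and 2 MICAL1-FL peaks, one of 6 fragments 885 bp after the start (chromosome 3 95355852 to 95356385) and one beyond its end inside Cers2. Ehmt1 and Ehmt2 encode GLP and G9a, which make mono- and dimethylated H3K9. Ehmt1 had 3 control and 2 MICAL1-FL peaks where its 139 kb would hold 6.37 and 5.90, and its strongest control peak, chromosome 2 24897930 to 24898249, had 6 fragments and a p of 0.0014. Ehmt2 had 0 control and 2 MICAL1-FL peaks, one over the start (chromosome 17 34898694 to 34899112, 5 fragments) and one of 6 fragments upstream (-4.22 kb from the outermost start) inside Zbtb12.

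The HP1 genes each had at most 1 peak per list. Cbx1, which encodes HP1 beta, had both of its peaks beyond the end of the gene, with 6 fragments each and no overlap. Cbx3, for HP1 gamma, had a control peak inside the gene and a MICAL1-FL peak before the start inside Hnrnpa2b1, each of 4 fragments. Cbx5, for HP1 alpha, had 0 control peaks and a MICAL1-FL peak of 7 fragments at chromosome 15 103223091 to 103223455 (fold 2.99, p 0.00035), the strongest of this group in that list.

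The HUSH complex silences retroelements through H3K9 methylation, and Pphln1 and Mphosph8 encode its subunits periphilin and MPP8. Pphln1 had 1 control peak and 5 MICAL1-FL peaks beside 4.75 and 4.40 by length, so the control count is the one further from its length. The MICAL1-FL summits lay upstream of the nearest start (-580 bp), inside Zcrb1, and at 6.49, 30.4, 76.8 and 86.4 kb along the gene, the last being the strongest (chromosome 15 93484438 to 93484810). The control peak, at 93478674 to 93478993, had 6 fragments and did not overlap any of them. The ratio of 5 has an interval from 0.559 to 236, which includes 1. Mphosph8 had none in either list. Morc3, which encodes an ATPase of silent chromatin, had 1 control peak of 5 fragments 2.57 kb after the start and no MICAL1-FL peak. Over the 3 genes, control peaks numbered 2 and MICAL1-FL peaks 5, and the ratio was 2.50 (0.409 to 26.3).

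DNA methylation genes had the most peaks per Mb of the role groups in both lists, and Dnmt3a held 12 of their 22 control and 8 of their 19 MICAL1-FL peaks. The 7 genes of methyltransferases, their cofactors and remodellers had 22 control peaks, or 56.6 per Mb (35.5 to 85.6), and 19 MICAL1-FL peaks, or 48.9 per Mb (29.4 to 76.3). Both intervals include the density of all protein-coding genes. Without Dnmt3a the values were 37.6 (18.0 to 69.1) and 41.4 (20.6 to 74.0). The ratio of MICAL1-FL to control peaks was 0.864 (0.442 to 1.67) and became 1.10 without Dnmt3a and 1.17 with peaks of a -log10 p of at least 2.

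**Figure D4:**
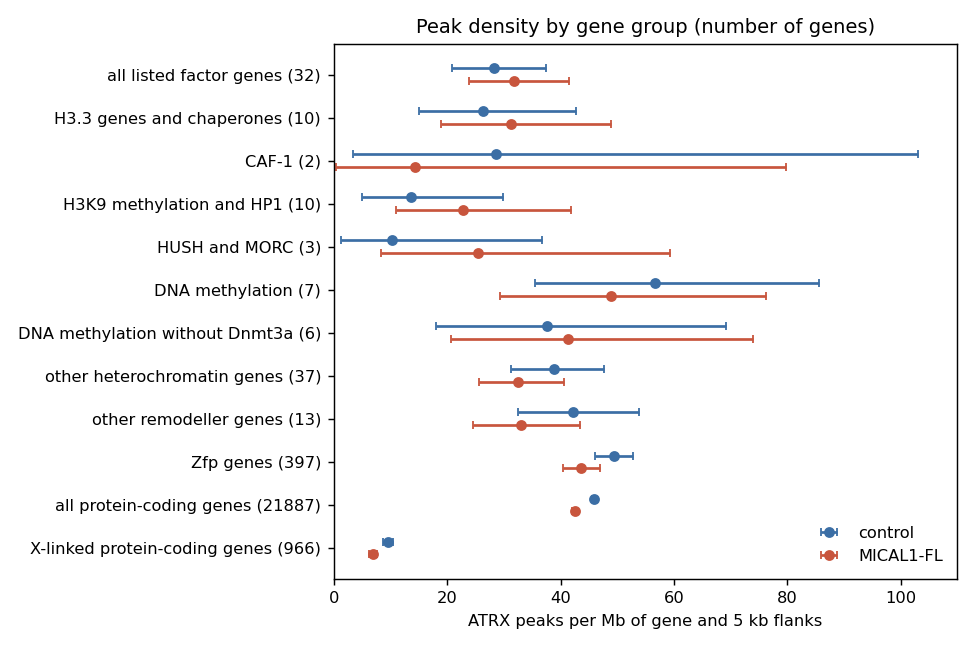
ATRX peaks per Mb of gene and 5 kb flanks (points) with 95% Poisson intervals (bars, counting error only) by gene group, number of genes in brackets, in the control (blue) and MICAL1-FL (red) lists. The H3K9 methylation and HP1 group lies at 13.7 and 22.8 and the DNA methylation group at 56.6 and 48.9, where all protein-coding genes lie at 45.9 and 42.5.

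Dnmt3a, the de novo methyltransferase that sets DNA methylation in maturing neurons, had 12 control and 8 MICAL1-FL peaks, the most of any member in both lists. At the density of all genes its 123 kb would hold 5.64 and 5.22, so the counts were 2.13 (1.10 to 3.72) and 1.53 (0.661 to 3.02) times that. Of the 64 such intervals over all members and both lists, 4 left out 1 with no adjustment for their number, namely Dnmt3a above it and Ubn2 below it in the control list and Atrx below it in both.

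Most peaks along Dnmt3a lay at different positions in the lists. That is usual here, as 8.06% of control and 8.69% of MICAL1-FL peaks over all protein-coding genes overlapped the other list. MICAL1-FL summits lay at 4.69, 6.22, 7.20 and 8.89 kb from the outermost start, near an internal annotated start, and then at 21.5, 46.7, 53.0 and 76.7 kb. Control summits lay at 6.42, 24.1, 26.5, 36.2, 44.3, 62.5, 68.4, 71.9, 82.7, 85.5, 89.7 and 101 kb. The cluster of 4 near the 5′ side was thus in the MICAL1-FL list, and past 76.7 kb there were 4 control peaks and no MICAL1-FL peak. This arrangement was seen after the positions had been drawn, and with 1 library each it has no test. The peaks at 6.42 and 6.22 kb were the only overlapping pair of the gene, the control peak at chromosome 12 3807753 to 3808077 (7 fragments over a background of 3.24, fold 1.89, p 0.018) and the MICAL1-FL peak at 3807694 to 3808068 (6 fragments, fold 2.68, p 0.0014). The strongest MICAL1-FL peak of the group was at 3806119 to 3806379 (7 fragments, fold 3.06, p 0.00028). Strongest in the control list were peaks of 7 fragments and equal p (0.0013) at 3825370 to 3826230 and 3902508 to 3902817. Dnmt3a is known to make a shorter isoform from an internal promoter, and a control peak of 7 fragments had its summit upstream of an internal start (-465 bp).

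**Figure D5:**
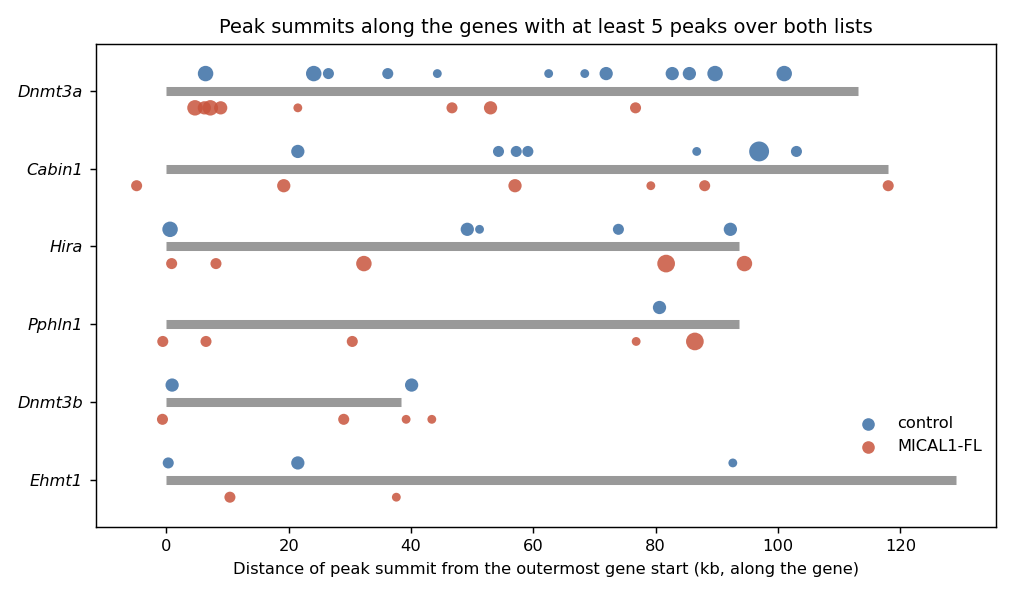
Distance of each ATRX peak summit from the outermost gene start (kb along the gene, grey bar for the gene span) in the 6 genes with at least 5 peaks over both lists, control above and MICAL1-FL below the bar, with larger points for deeper peaks of 4 to 9 fragments. Near the start of Dnmt3a the MICAL1-FL list has 4 summits between 4.69 and 8.89 kb and the control list 1, at 6.42 kb.

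The other methyltransferase genes carried a few peaks each. Dnmt1, which copies methylation after replication, had 1 control peak of 4 fragments upstream of its outermost start (-283 bp), and 3 MICAL1-FL peaks inside the gene at 14.2, 39.4 and 48.5 kb. Dnmt3b had 2 control and 4 MICAL1-FL peaks. Near its start these were a control summit 916 bp after and a MICAL1-FL summit upstream of the start (-662 bp). One MICAL1-FL peak in its far flank, at chromosome 2 153692712, overlapped a control peak that began at 153692890, outside the window.

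Uhrf1, which recruits DNMT1 to hemimethylated DNA, had 3 control peaks at its far end, one of them inside Kdm4b, and 1 MICAL1-FL peak of 6 fragments at an annotated start. Mbd1, a reader of methylated DNA, had 2 peaks in each list, all in the flank on 1 side of the gene. A pair overlapped there, the control peak at chromosome 18 74264951 to 74265272 (fold 1.85, p 0.023) and the MICAL1-FL peak at 74264744 to 74265297 (fold 2.68, p 0.0014), with 6 fragments each. Hells, the remodeller LSH that helps DNA methylation, had 0 control peaks and 1 MICAL1-FL peak beyond its end. Smarca5, the ISWI remodeller SNF2H, had 2 control peaks, one with its summit 1032 bp after the start, and no MICAL1-FL peak.

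Peaks within 1 kb of an annotated start were about as frequent at these genes as at others. Of the 31 genes with an entry, 8 had a control summit there (25.8%, 11.9 to 44.6) beside 24.1% of all protein-coding genes with an entry. They were Hira, Ubn1, Asf1b, Suv39h2, Ehmt1, Dnmt1, Dnmt3a and Dnmt3b. A MICAL1-FL summit was found at 9 (29.0%, 14.2 to 48.0) beside 23.1%, namely Atrx, Hira, H3f3a, Setdb1, Ehmt2, Pphln1, Dnmt3a, Dnmt3b and Uhrf1. Both lists had one at Hira, Dnmt3a and Dnmt3b, 9.68% (2.04 to 25.8) beside 9.42%. The summit nearest to the limit on the inside was that of Dnmt3b at 916 bp and on the outside that of Smarca5 at 1032 bp. Summits inside the gene lay in the first 10% of its length for 8 of 40 control peaks (20%, 9.05 to 35.6) beside 16.5% over all genes, and for 13 of 35 MICAL1-FL peaks (37.1%, 21.5 to 55.1) beside 16.9%. Without Dnmt3a, which has 4 of the latter, these were 7 of 28 (25%, 10.7 to 44.9) and 9 of 27 (33.3%, 16.5 to 54.0), and the MICAL1-FL interval then includes the background.

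The lists shared few peaks on these genes, at the rate of other genes. An overlap with the other list was found for 4 of 48 control peaks (8.33%, 2.32 to 20), and for 5 of 54 MICAL1-FL peaks (9.26%, 3.08 to 20.3), beside 8.06% and 8.69% over all protein-coding genes. The 4 genes with an overlapping pair were Hira, Cabin1, Dnmt3a and Mbd1, or 12.5%, where 14.8% of all genes, not matched for length, had one.

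A wider list of 37 heterochromatin genes, taken from the same pathways, had 92 control and 77 MICAL1-FL peaks, or 38.8 (31.3 to 47.6) and 32.5 (25.6 to 40.6) per Mb. The control interval includes the 45.9 of all protein-coding genes. The MICAL1-FL interval lies below their 42.5, as did that of the 32 factor genes. A control peak was present at 32 of the 37 genes (86.5%), a MICAL1-FL peak at 28 (75.7%) and both at 26 (70.3%). Over all protein-coding genes these shares were 64.0%, 61.2% and 48.2%. They are not matched for length, and windows of the wider list are longer (median 54 beside 27.2 kb). Kdm3b, Baz2a and Hirip3 had no peak in either list. The ratio was 0.837 (0.610 to 1.15), and its interval overlaps that of the 32 factor genes. Pairs that overlapped were found at Morc2a and Tasor, further genes of HUSH-dependent silencing, and at the histone deacetylase gene Hdac2. Peaks per Mb over both lists were highest at Hdac2 (319, from 4 control and 8 MICAL1-FL peaks), Zfp57 (204, 2 and 2 peaks), which encodes an imprint-binding zinc finger protein, and Mbd3 (177, 2 and 1 peaks).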

How the data were processed

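ATRX ChIP-seq peak lists of control and MICAL1-FL neurons were used, 1 per condition. Tools named per the submitters' processing notes, without their roles, are MACS 1.4.2, Bowtie 1.3.0, ChIPseeker 1.26.2 and SAMtools 1.9. Neither a calling threshold nor a genome build or sequencing depth was stated there. The deposited fold is a ratio of ChIP over background. Each peak's −log10 p and −log10 q are as deposited, and the largest p was 0.0498 for control peaks and 0.0496 for MICAL1-FL peaks. The deposited score is the whole part of 10 times −log10 p and was not used.

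The lists held 112153 control and 105674 MICAL1-FL peaks, 112008 and 105498 of them on chromosomes, which were used. Genes and promoters were those of RefSeq GRCm38.p6. Summits within 250 bp of annotated starts were 3.30 and 3.62 times as dense as those 5 to 10 kb away, from which the build was taken. Exons were not annotated. Depth was recovered as the whole pileup for which fold is pileup + 1 over background + 1 and p is a Poisson tail, an inference that met −log10 p within 0.001 for 99.97% and 99.98% of peaks. Shares have Clopper-Pearson, counts Poisson and ratios conditional binomial intervals at 95%. Conditions were not tested against each other, each having 1 library. Counting was tested on simulated data. Python 3.11.15, scipy 1.17.1, pandas 2.3.3 and numpy 2.4.6 were used. The members, role groups and gene lists were chosen with earlier results of these data known. Named in full were Atrx, Daxx, overlapping pairs, peaks with a q below 0.05 and the strongest peak of each list in each role group. Also named were members with 0 peaks, the 5 with most peaks and those that differed by 2 times between lists, and, of other pathway genes, those with an overlapping pair and the 3 with most peaks per Mb. All 32 members are given by count, and the peaks and genes described beyond this rule were chosen after their values were seen. Alternatives changed the flank, the overlap, the p or q limit, the members and the distance to a start.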

Additional observations from a re-analysis of the deposited data

How the results depend on the processing

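Of 119 values under other settings, 89 stayed within the counting interval or within 1.5 times of the reported value and 30 did not. Ratios have wide intervals, so a ratio could change direction and still be counted as within. The ratio of the members did so, from 1.12 to 0.875 on the gene spans alone. On the gene spans alone, 15 members had a MICAL1-FL peak, 8 had one in both lists and MICAL1-FL peaks numbered 35. With a -log10 p of at least 2, control peaks numbered 29 and densities were 17.1 and 22.4 per Mb. With at least 3, 1 member had a control peak, 5 a MICAL1-FL peak and 0 both, so that 1 and 5 had a peak of 1 list alone, with 1 and 7 peaks, 0.589 and 4.12 per Mb and a ratio of 7. The 7 MICAL1-FL peaks were 13% of the members' peaks, beside 12.4% over all genes, and the 1 control peak was 2.08% beside 14.6%. With q below 0.05 the counts and densities were 0. Control peaks found in both lists were 2 with summits within 250 bp and 7 with peaks up to 1 kb apart. Starts within 500 bp had a summit at 5 members (control), 4 (MICAL1-FL) and 0 (both). For the member counts in this paragraph, the share of all protein-coding genes was not counted under the same setting. They therefore cannot be set against a background. The cause of the changes was not tested beyond the fewer peaks or bases that each setting leaves. The settings for peaks of 1 list alone were chosen after the data were seen, as was leaving out Dnmt3a, which gave 22.8 and 29.2 peaks per Mb and a ratio of 1.28. No paired analysis was possible because each condition has 1 library, and none could be left out for the same reason. Depths of 4 to 9 fragments limit every count.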

Other observations

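Remodeller genes related to Atrx were read beside it, in a list of 13 SNF2-family genes. They had 64 control and 50 MICAL1-FL peaks, or 42.2 (32.5 to 53.9) and 33.0 (24.5 to 43.4) per Mb. A peak was present at 11 and 10 of the 13 genes (84.6% and 76.9%), beside 64.0% and 61.2% of all protein-coding genes. Those shares are not matched for length, and the remodeller windows are longer (median 98.1 beside 27.2 kb). The longest windows had most of the peaks, with 14 control and 17 MICAL1-FL peaks at Chd9, 13 and 7 at Smarca2 and 10 and 9 at Chd7. These genes were picked after their values were seen. Smarca1, which is X-linked like Atrx, and Srcap had 0 in both lists. The 397 genes named Zfp with a number, many of which encode partners of TRIM28, had 49.4 (46.1 to 52.8) control and 43.6 (40.5 to 46.9) MICAL1-FL peaks per Mb, beside 45.9 and 42.5 for all protein-coding genes, which the control interval leaves out and the MICAL1-FL interval includes.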
